A study of Mus musculus with 8 samples.

Results

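Long intergenic noncoding RNA (lincRNA) transcription was followed with 16251 probes of a mouse Agilent 8x60K array, those whose names begin with A_30_P. They represent 3555 intergenic regions on mm9, of which 1067 were probed on both strands, giving 4622 region strands, and regions within 10 kb of each other form 1973 loci. The filter asked that the scanner software rate a probe well above background in 4 or more of the 8 arrays. That left 10837 lincRNA probes (66.7%) in 4087 region strands and 1821 loci, out of 40807 kept probes and 55681 non-control probes in all. The others were 5391 dim probes and 23 with a marked spot. Of the kept lincRNA probes, 70 passed with no eGFP array above background and 7 with no Hoxa9-eGFP array above background, so these had to differ between the groups. Both groups were satellite cells sorted from skeletal muscle (hindlimb) of C57BL/6J mice aged 3 to 4 months, cultured, and given a lentivirus. The 4 control samples carried integrated eGFP cDNA and the 4 others Hoxa9 cDNA with eGFP cDNA, and eGFP-positive cells were sorted 5 days after transduction. The labels do not tie samples to separate animals, and every p-value therefore reflects only how these samples spread, which may be technical.

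LincRNAs are transcripts from stretches between protein-coding genes that carry no long reading frame. Many are retained in the nucleus, and some act near their site of synthesis, as scaffolds of nuclear bodies or through small RNAs cut from them. Hoxa9 is a homeodomain transcription factor of the HoxA cluster, and the Hox clusters themselves give rise to several noncoding transcripts, which makes both the intergenic probes and the Hox neighbourhoods a natural readout of its overexpression.

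The probes are 60 bases long, and their letters are given as the files list them, 5′ to 3′. A pair of probes on opposite strands of a region between Ttll6 and Hoxb9 in the HoxB cluster is shown first, because both rose. Capitals mark the 45 bases of each that are complementary to the other.
A_30_P01019010: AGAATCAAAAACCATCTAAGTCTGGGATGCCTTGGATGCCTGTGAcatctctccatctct
A_30_P01021551: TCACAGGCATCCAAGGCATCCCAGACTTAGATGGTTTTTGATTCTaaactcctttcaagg
The first is the reverse-strand probe at chr11:96114981-96115040 and the second the forward-strand probe at chr11:96114996-96115055. Next come 2 pairs from a locus between Ifna1 and Mtap on chromosome 4 where both strands fell, with 44 complementary bases in one pair and 20 in the other, again in capitals.
A_30_P01019307: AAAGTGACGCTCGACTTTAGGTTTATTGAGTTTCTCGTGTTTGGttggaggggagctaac
A_30_P01032419: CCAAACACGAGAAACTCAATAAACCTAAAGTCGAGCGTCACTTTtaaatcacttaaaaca
A_30_P01027753: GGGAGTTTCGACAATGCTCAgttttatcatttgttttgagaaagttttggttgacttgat
A_30_P01030237: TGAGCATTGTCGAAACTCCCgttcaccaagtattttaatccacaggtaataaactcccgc
They lie within chr4:88583426-88583485 (reverse), chr4:88583442-88583501 (forward), chr4:88583505-88583564 (reverse) and chr4:88583545-88583604 (forward). The following probes carry the largest rises, a large fall, and the changes of H19 and NEAT1, and are shown in lower case throughout. They lie at chr17:8718621-8718680 (forward), chr12:5370605-5370664 (reverse), chr4:63810879-63810938 (forward), chr7:149761957-149762016 (reverse) and chr19:5842786-5842845 (reverse), in that order.
A_30_P01033111: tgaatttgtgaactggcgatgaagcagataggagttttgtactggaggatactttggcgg
A_30_P01018482: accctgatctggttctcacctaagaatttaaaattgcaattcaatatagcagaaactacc
A_30_P01017915: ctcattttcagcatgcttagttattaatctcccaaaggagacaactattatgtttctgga
A_30_P01028007 (H19): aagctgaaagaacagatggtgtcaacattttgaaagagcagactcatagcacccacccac
A_30_P01023251 (NEAT1): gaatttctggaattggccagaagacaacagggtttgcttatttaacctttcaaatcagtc
One lincRNA probe had the same 60 bases as a probe that the files assign to the annotated noncoding gene Foxd2os, at chr4:114588837-114588896 on the forward strand, with the shared letters in capitals.
A_30_P01018351: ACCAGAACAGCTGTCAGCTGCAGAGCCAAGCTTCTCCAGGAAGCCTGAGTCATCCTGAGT

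Between 61.3% and 71.9% of the lincRNA probes were well above background on each array, and precision is limited by there being 8 arrays. Levels are given as log2 signal relative to the array's 75th percentile, and differences as Hoxa9-eGFP minus eGFP on that scale. One Hoxa9 probe was 5.98 higher in the Hoxa9-eGFP samples and the other 1.74 lower, both called. The 3 slides each held both groups. Of 8 satellite cell and myoblast marker genes all were kept, and their mean level lay between 3.68 and 3.97 in eGFP and between 2.76 and 3.12 in Hoxa9-eGFP samples. Pax7, Myf5, Vcam1 and Itga7 were called lower and Ncam1 higher. Myf5 lost its call when the replicate number entered the fit (adjusted p = 0.0577 by limma), and Itga7 when the slide did (0.0679). Endothelial, immune, adipocyte and Schwann cell lists held no called gene in this fit, with Tek, Ptprc and Plin1 under the filter, while Ly6a of the 6 fibroblast genes was higher and Acta2 of the 4 smooth muscle and pericyte genes lower (adjusted p = 0.0551 with the slide as a block). With the replicate block Lum (fibroblast, -2.60), Cdh5 (endothelium, -2.06) and Myh11 (smooth muscle, 1.21) were called as well (adjusted p = 0.0474, 0.0489 and 0.0496, against 0.198, 0.133 and 0.142 without it). The mean level of the fibroblast list overlapped between the groups (-0.90 to 0.49 in eGFP, -0.83 to 1.02 in Hoxa9-eGFP). The part of these shifts in the lincRNA differences was not tested, and in bulk samples fewer cells of a type and less RNA per cell cannot be told apart.

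LincRNA probes moved in both directions, and were called less often than the other probes at low, middle and high signal. Under limma with Benjamini-Hochberg adjustment over all kept probes (adjusted p under 0.05, the meaning of called throughout), 321 lincRNA probes were higher in Hoxa9-eGFP cells and 465 lower. These 786 were 7.25% of the kept lincRNA probes, against 13.5% of all kept probes and 15.7% of the other 29970. Of the 321 higher, 48 had passed the filter with no eGFP array above background. Of the 465 lower, 7 had passed with no Hoxa9-eGFP array above background. Higher calls were 2.96% of lincRNA probes against 6.82% of all kept probes, and lower calls 4.29% against 6.65%. Requiring a 2-fold change as well left 205 higher and 256 lower. The groups did not overlap for 1485 lincRNA probes (13.7%), against 22.3% of all kept probes. The median difference was -0.10 over lincRNA probes and -0.07 over all kept probes. Neither median was stable over the slides. Within slides 1, 2 and 3 it was 0.27, -0.28 and -0.23 for lincRNA probes, and 0.08, -0.07 and -0.12 for all kept probes. A slide block gave fewer calls: 218 probes were higher and 287 lower. Without eGFP replicate 2 the counts were 203 and 252, and without Hoxa9-eGFP replicate 4 they were 208 and 406.

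The lincRNA probes were dimmer than the others (median level -3.26 against -0.82), and dim probes varied more. Kept probes were split by mean signal into 3 classes of equal size. In the lowest, 5.54% of 5689 lincRNA probes were called, with a median standard error of 0.381, against 11.6% of the other probes at that level, whose median standard error was 0.385. In the middle the shares were 8.43% of 4045 lincRNA probes and 18.6% of the others. The highest held only 1103 lincRNA probes, of which 11.8% were called, against 16.1%. Higher and lower calls of lincRNA probes were about level in the lowest (2.85% and 2.69%), while in the highest lower calls were the more frequent (8.07% against 3.72%). Among the other probes, too, lower calls were the more frequent in the highest (9.32% against 6.8%). In the lowest their higher calls were the more frequent (7.96% against 3.6%).

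The largest rise was at chr17:8718223-8949898 on the forward strand, between Prr18 and Pde10a. Probe A_30_P01033111 there had levels of -5.99, -5.29, -3.46 and -3.65 in the eGFP samples (replicates 1 to 4, the order used throughout) and -0.77, -0.94, -0.85 and -0.97 in Hoxa9-eGFP cells. The Hoxa9-eGFP values were tight and all above the eGFP values, which spread widely, and the difference was 3.71 (SE 0.54, adjusted p = 0.00291 by limma). Within slides 1, 2 and 3 it was 4.67, 2.60 and 2.81. Neither flanking gene was called: Prr18 differed by 0.72 and Pde10a, a cyclic nucleotide phosphodiesterase, by 0.77.

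The second largest rise lay on the reverse strand at chr12:5303823-5379098. Probe A_30_P01018482 stood at -4.93, -5.53, -4.45 and -3.70 in eGFP and at -1.34, -1.62, -0.63 and -0.41 in Hoxa9-eGFP cells, a difference of 3.65 (SE 0.43, adjusted p = 0.00107). Its nearest mRNA gene was Klhl29, 284 kb away on the same strand, and that gene rose by 3.85 (adjusted p = 7.9e-04). A similar arrangement was found at chr6:93029101-93031007, where probe A_30_P01022704 rose by 3.07 (SE 0.25) and was above background on no eGFP array. Adamts9, a secreted metalloprotease 307 kb away on the opposite strand, was higher by 3.22 (adjusted p = 3.7e-05 by limma).

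Closer pairs were also seen. At chr2:36112819-36114110, probe A_30_P01021337 was rated above background on no eGFP array (-7.96, -7.54, -7.77, -7.65) and read -4.04, -4.16, -4.46 and -4.49 in Hoxa9-eGFP cells. The rise was at least 5.67-fold, and Ptgs1, the constitutive cyclooxygenase, whose probe lay 5.33 kb away on the same strand, was higher by 2.68. Such bounds are approximate and hold for the main processing only. The floor on each array of the dim group was the lowest signal rated well above background. The probe's own value served where that was higher. Over the alternatives the difference of A_30_P01021337 ran from 0.59 to 3.51, so its size depended on the processing. At chr17:29571806-29603008 the rise of A_30_P01027519 was at least 5.38-fold, 27.9 kb from Pim1, a serine/threonine kinase that rose by 1.22. This was the only called probe of the 3 kept there, and the others differed by 0.39 and 0.74. In 1 alternative it was not called (adjusted p = 0.0917 by limma), and over the alternatives its difference ran from 0.51 to 3.11. At chr9:13349094-13352732, all 3 kept forward-strand probes rose, A_30_P01031292 by 2.64. Maml2, a Notch coactivator, rose by 1.59 at its nearest probe, 71.7 kb away on the same strand and inside the same locus. A Maml2 probe beyond the locus rose by 2.75.

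For the other rises the nearest mRNA gene did not follow. At chr2:77146893-77155643 (A_30_P01020923, at least 6.55-fold) the nearest, Zfp385b, was lower by 0.82. At chr18:77968421-77972209 (A_30_P01018995, 2.91) Haus1, a subunit of the augmin complex, was lower by 0.77. That probe was not called with the slide as a block (adjusted p = 0.0526 by limma). All 3 kept probes of its region strand were called higher in the main fit, by 2.41 to 2.91. An annotated probe of the locus on the same strand, for A330094K24Rik, rose by 2.67 (adjusted p = 1.6e-04 by limma, and 0.00137 with the slide block). Guca2b, Mrps14, Pxylp1 and Tns1, nearest to the rises at chr4:119406384-119407856 (at least 4.63-fold), chr1:161992257-161992963 (3.12), chr9:96664617-96683617 (2.77) and chr1:73664661-73911040 (at least 3.53-fold), were not called. The rises given as bounds near Zfp385b, Guca2b and Tns1 had lowest differences of 0.63, 0.46 and 0.40 over the alternatives, below those bounds. In all, 6 of the 12 largest rises were above background on no eGFP array.

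A pair of large falls with small standard errors lay on chromosome 4. Probe A_30_P01017915 at chr4:63810346-63810958, between Tnc and Pappa, read -1.69, -1.76, -1.85 and -2.17 in eGFP and -4.72, -4.22, -4.27 and -4.41 in Hoxa9-eGFP cells. All 3 kept probes of the region were called lower, this one by 2.54 (SE 0.18, adjusted p = 1.2e-04), and a probe for an unnamed transcript within the region fell by 2.06. Pappa, a secreted metalloprotease, was higher by 2.39 (adjusted p = 6.2e-04) and Tnc was not called. Probe A_30_P01018351 at chr4:114585803-114588898, between Foxd2 and Foxe3, fell from -0.90, -0.92, -0.99 and -1.11 to -3.18, -3.17, -3.23 and -3.60. It was the only called probe of the 3 in its region. Its difference of -2.32 (SE 0.15) may be set beside the -2.24 of the Foxd2os probe of identical sequence, and Foxd2, a forkhead transcription factor gene, was lower by 1.27 (adjusted p = 0.0260).

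Other falls lay near genes that were also lower. Near Sqle, squalene epoxidase of the sterol pathway, probe A_30_P01018928 at chr15:58985008-58985429 differed by -2.20 and Sqle, 177 kb away, by -1.23. At chr9:78107225-78118850, probe A_30_P01028766 fell by 2.50 and Gm3776, which the array probes at the same position, by 2.03, while the neighbouring glutathione transferase gene Gsta4 fell by 2.24. That lincRNA probe shared at least 20 bases with a probe elsewhere on the array, and whether its signal comes from 1 transcript was not tested.

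The largest falls by size had larger standard errors. At chr8:70603786-70604243 the only kept probe, A_30_P01020208, differed by -2.86 (SE 0.66), and under the slide block its adjusted p was 0.0530. A_30_P01027571 at chr4:136856064-136875614, 2.68 kb from the GTPase gene Cdc42, was the only called probe of the 18 kept in its locus. It differed by -2.71, with an adjusted p by limma of 0.0407, and of 0.0818 with the slide block and 0.0662 with the replicate block. A_30_P01019924 at chr8:44232164-44267061 differed by -2.34, with adjusted p values of 0.0410, 0.0540 and 0.0623 in the same order. The other kept probe of that region strand was not called, and a probe for another transcript in the locus, A_55_P2123711, was higher by 1.35 (adjusted p = 0.0040). The remaining falls were at chr17:95158347-95160942 (-2.52), chr11:52463475-52485075 (at least 4.62-fold), chr4:88542373-88589148 (-2.28), chr4:88745770-88774130 (-2.19) and chrX:75813213-75829323 (-2.17). The fall given as a bound was as small as -0.37 over the alternatives. All 24 of these largest changes had the same sign on each of the 3 slides. Their selection required this, since their groups do not overlap and each slide held both groups. Of their nearest mRNA genes 7 were called in the same direction and 2 in the opposite one. The 7 include Gm3776, which is probed at the same position.

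Calls were gathered in several loci. The one with the most called probes lay at chr17:26911032-26917047, 1.75 kb beyond the probe of Crebrf, a regulator of the transcription factor CREB3, on the same strand. Of its 20 kept probes 16 were called higher. All 10 kept probes of the forward strand of chr17:26911397-26917047 rose, by 1.13 to 2.08, and their mean level was -0.95, -0.98, -1.42 and -1.25 in eGFP and 0.85, 0.76, 0.48 and 0.63 in Hoxa9-eGFP cells. Crebrf itself was higher by 2.10 (SE 0.44, adjusted p = 0.0161), and Bnip1, on the other side, differed by 0.07. On the reverse strand 4 of 7 probes were called, by up to 1.89, all at low signal. Over the alternatives that kept all probes of a region, 12 to 16 probes of the locus were called.

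The strongest falling locus was chr4:88542373-88589148, 46.8 kb long. Ifna1 and Mtap flank it on the array, and RefSeq's gene table, of a later assembly, lists the microRNA gene Mir31 between these genes. Of 17 kept probes 12 were called lower, with a median difference of -1.92, and within slides the medians were -1.90, -1.88 and -2.02. The 5 reverse-strand probes of the longest region fell by 1.73 to 2.28, and 3 more in chr4:88583425-88584070 by 2.15 to 2.23. Probe A_30_P01019307 there read 2.64, 2.65, 2.85 and 2.60 in eGFP and 0.88, 0.77, 0.06 and 0.11 in Hoxa9-eGFP cells. Its complement A_30_P01032419 read -3.08, -2.69, -3.14 and -3.06 in eGFP and -5.12, -4.85, -4.80 and -5.36 in Hoxa9-eGFP cells, and fell by 2.04. Forward-strand probes elsewhere in the locus were not called, and neither Ifna1 (0.30) nor Mtap (-0.42), the methylthioadenosine phosphorylase gene, was.

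At chr6:30983012-31293337, between Klf14 and Mkln1, 12 of 41 kept probes were called, all higher, and the median difference was 0.06. The region strands that begin before chr6:31078802 held no called probe. The reverse-strand probes of chr6:31115515-31168433 rose by 1.96 to 2.28 (3 of 3), and 2 of 3 in chr6:31078802-31079644 were called, by up to 2.15. Forward-strand probes of chr6:31170350-31287353 rose by 0.90 to 1.15 (3 of 3). The array also holds probes for transcripts annotated there. That for a p53-induced noncoding transcript rose by 2.25 (SE 0.43, adjusted p = 0.0106), from -3.87, -3.29, -2.27 and -2.45 to -0.95, -1.33, -0.76 and 0.17, and both probes for the cDNA AB041803 were called higher, one of them by 2.11. A further annotated transcript there, 5330406M23Rik, was not called (0.15). Beyond the locus neither Mkln1 (0.27) nor Klf14 (-1.91, adjusted p = 0.129) was called.

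Falls spread over longer loci. At chr13:108548345-108679708, between Zswim6 and Smim15, 12 of 18 kept probes were called lower, with a median difference of -1.11, and the 3 probes of chr13:108653722-108654406 on the reverse strand by 1.12 to 1.19. Neither flanking gene was called (Zswim6 -0.87, adjusted p = 0.0668), and normexp gave 7 called probes in the locus. At chr1:139713316-139913366, between Nr5a2 and Atp6v1g3, 9 of 26 probes were called lower. All of these were on the forward strand, where the 3 probes of chr1:139822286-139822985 fell by 1.04 to 1.25. The count there dropped to 3 without Hoxa9-eGFP replicate 1 and to 4 without Hoxa9-eGFP replicate 2 or eGFP replicate 3 or 4.

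Shorter loci completed the set. At chr5:23195569-23218551 all 7 kept reverse-strand probes fell by at least 0.94, as did the annotated noncoding BC023969 within the locus (-1.22, adjusted p = 0.00774), and 8 of 10 probes were called in all (5 under the slide block, 5 without eGFP replicate 2 or Hoxa9-eGFP replicate 1). At chr1:59773381-59780348 all 8 kept forward-strand probes were called lower by 0.65 to 1.05, 5.09 kb beyond Nop58, a core protein of box C/D small nucleolar ribonucleoproteins, on the same strand, which fell by 0.78 (adjusted p = 0.0178). That count was 2 with the slide block and 3 with the replicate block. It was 2 without eGFP replicate 2, 3 without eGFP replicate 1 or Hoxa9-eGFP replicate 1, 4 without Hoxa9-eGFP replicate 2 or 4, and 5 without eGFP replicate 4. At chr2:77146893-77155643, 7 of 10 probes were called higher, all on the reverse strand. This locus tied with others at 7 called probes and was taken for its larger median difference (2.07). It held 1 such call among probes above background on all 8 arrays and 2 under another background correction (normexp). Without eGFP replicate 1, eGFP replicate 2 or Hoxa9-eGFP replicate 3 it had 4.

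Over all loci, 30 had at least 3 probes called higher and 63 at least 3 called lower, and 5 had calls in both directions. Of 1897 region strands with at least 3 kept probes, 12 had every kept probe called higher and 32 every one called lower. Probes of the same region and strand that did not overlap moved alike in part: across 14394 such pairs the differences correlated at r = 0.381. For pairs on opposite strands of a region r was 0.139 (10505 pairs). These are descriptions, since probes of a region share arrays and often a transcript.

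Around the Hox clusters lincRNA probes were called in both directions. Of 37 kept probes for Hox genes 20 were called lower and 3 higher, with a median difference of -1.11, and 1 of the 3 was the Hoxa9 probe that was 5.98 higher with the transduced gene. Of 47 kept lincRNA probes within 100 kb of a cluster, 3 were called higher and 2 lower, which is 10.6%, between the 7.25% of all kept lincRNA probes and the 13.5% of all kept probes, with a median difference of -0.04. The groups did not overlap for 6 of the 47, against 22.3% of all kept probes. No lincRNA probe of the array lies within that distance of HoxD.

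In the HoxB cluster the called probes pointed both ways. At chr11:96111499-96126224, between Ttll6 and Hoxb9, reverse-strand probe A_30_P01019010 rose from 2.01, 1.86, 2.32 and 2.27 to 3.68, 3.76, 3.49 and 4.53 (difference 1.75, SE 0.25, adjusted p = 0.00244). The forward-strand probe that is its complement, A_30_P01021551, rose from -5.22, -5.57, -4.01 and -4.88 to -3.60, -3.95, -3.50 and -2.88 (1.44, SE 0.36, adjusted p = 0.0330, and 0.108 under the slide block). The neighbouring reverse-strand probe of the same region, A_30_P01030733, differed by -0.05 and was not called. Hoxb9 itself was not called (-0.50).

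Between Hoxb5 and Hoxb4, both lower (by 1.18 and 0.92), the 3 kept forward-strand probes of chr11:96175764-96176029 read lower in every Hoxa9-eGFP sample than in any eGFP sample. A_30_P01019818 differed by -0.80 (SE 0.18, adjusted p = 0.0229) and A_30_P01022855 by -0.75 (SE 0.21, adjusted p = 0.0467), while A_30_P01026003, at -0.75, was not called (adjusted p = 0.140). Under the slide block neither of the first 2 was called (adjusted p = 0.0628 and 0.116), and with the replicate block only the first was (0.0415 and 0.0642). The other 2 kept forward-strand probes of this interval, at chr11:96173788-96174352, differed by 0.09 and 0.72 and were not called.

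In HoxC a single probe, A_30_P01029053 at chr15:102920547-102933472, 53.3 kb beyond Hoxc4, was called (1.07, SE 0.20, adjusted p = 0.00888), from -5.26, -4.99, -5.38 and -5.21 to -4.38, -4.20, -4.33 and -3.64. The 5 probes of HOTAIR, transcribed from between Hoxc12 and Hoxc11, differed by -0.02 to 0.93 and none was called. Near HoxA, limma called none of the 11 kept probes, and 1 had an unadjusted p under 0.05. A probe for Hoxa11os, the annotated antisense RNA of Hoxa11 inside the cluster, fell by 2.74 (SE 0.15, adjusted p = 5.4e-05), beside -3.07 for Hoxa11.

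Of 12 transcripts that carry a name among the lincRNA probes, 11 had a kept probe, and 2 moved at each of their kept probes. H19, the maternally expressed imprinted RNA that is abundant in embryonic and regenerating muscle, fell at all 5. Its mean level over those probes was 5.95, 5.62, 5.65 and 5.94 in eGFP and 4.11, 4.11, 4.85 and 5.06 in Hoxa9-eGFP cells. The groups were clearly apart, the 5 differences ran from -1.22 to -1.29 with adjusted p values of 0.0123 to 0.0309, and the mean difference within slides was -0.73, -1.54 and -1.09. One of the 5, A_30_P01021588, had an adjusted p of 0.0512 with the replicate block. Of 2 further H19 probes from the gene annotation, 1 was called lower (-0.93) and the other differed by -0.81 (adjusted p = 0.0569). With the slide block the first was not called either (adjusted p = 0.104 by limma).

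NEAT1, the scaffold of nuclear paraspeckles, rose at all 4 of its kept probes. Their mean level was 3.77, 3.80, 4.36 and 4.51 in eGFP and 4.96, 5.14, 5.14 and 5.27 in Hoxa9-eGFP cells. The eGFP samples spread more than the Hoxa9-eGFP ones, and the groups did not overlap. The differences were 0.98 to 1.09 (adjusted p = 0.00369 to 0.0305 by limma). An annotated Neat1 probe, which overlaps A_30_P01021631 and A_30_P01020135 of these and so reads part of the same stretch, rose by 1.23. Under the slide block 3 of the 4 were not called (adjusted p = 0.0595 to 0.0767), and the differences of their mean within slides were 1.48, 0.70 and 0.63. NEAT2, also known as Malat1, which lies beside NEAT1 on chromosome 19, differed by -0.40 to -0.20 at its 3 probes, none called.

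The Kcnq1ot1 gene yields an antisense RNA that silences the paternal Kcnq1 domain. The 5 probes the files name KCNQ1ot1 lie on the forward strand, that of Kcnq1 and opposite to the annotated Kcnq1ot1 probes, so their values are not given as those of the antisense RNA. One of them, A_30_P01028756, was called lower, from -2.88, -3.00, -2.67 and -2.69 to -4.03, -3.86, -3.79 and -3.85 (difference -1.07, SE 0.14, adjusted p = 0.00195). The other 4 differed by -0.56 to -0.16. Both annotated Kcnq1ot1 probes, on the reverse strand, fell by 1.17 and 1.28, and Kcnq1, a potassium channel gene, by 2.47 (adjusted p = 0.00842). No probe of TUG1 (5 kept), lincP21 (5), BRN1-A (3), PINC (3) or NRON (2) was called by limma, and none had an unadjusted p under 0.05. The 5 XIST probes differed by -0.42 to -0.28 and limma called none, with 1 at an unadjusted p of 0.0446.

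A list of 51 annotated noncoding genes, probed outside the A_30_P set, was read for comparison. The array held 37 of them and 33 were kept, with 55 probes, of which 3 were called higher and 7 lower (13.5% of all kept probes were called). The largest rise was that of Peg13, a paternally expressed RNA, from 0.57, 0.40, 0.15 and 0.20 to 2.28, 2.55, 2.23 and 2.48 (2.05, SE 0.16, adjusted p = 1.7e-04). Neat1 and Crnde were the other higher genes, Crnde by 0.55, and Crnde was not called with either block (adjusted p = 0.0556 with the replicate number, 0.0776 with the slide). Mir17hg, host of the miR-17 to miR-92 cluster, fell by 1.03, and the small nucleolar RNA hosts Gas5 and Snhg5 by 0.84 at 1 of 3 probes and by 0.99. Snhg5 was not called with the replicate block (adjusted p = 0.0620), and Snhg1, Snhg3, Snhg6, Snhg11, Snhg12, Snhg18 and Mir22hg were not called without a block. Blocks also added calls. With the slide block a Snhg11 probe was called higher (1.81, adjusted p = 0.00491 by limma). With the replicate block Dnm3os was called higher (1.44 and 1.52, adjusted p = 0.0237 and 0.0450) and Jpx lower (-0.60, adjusted p = 0.0418). Meg3 differed by 1.54 at 1 of its 3 probes, with an adjusted p of 0.0521 that became 0.00573 with the replicate block. Its maternally expressed neighbour Mirg was not called at any probe without a block. With the replicate block a Mirg probe was called higher (0.79, adjusted p = 0.0481 by limma), and its others were not called (0.0559 and 0.316).

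LincRNA probes moved with the nearest mRNA probe when it was very close and on the same strand, pairs at the same position included. Of 1404 lincRNA probes within 5 kb of a kept probe with a RefSeq mRNA accession, 97 (6.91%) were called, and 78 of these had the sign of their neighbour. For 44 of them the neighbour was called in the same direction and for 2 in the opposite one. The strand made a difference to this picture: r between the differences was 0.660 for 741 probes on the neighbour's strand and 0.215 for 663 on the other. Taking 1 probe per neighbouring gene, it was 0.597 (196 genes) and 0.135 (212 genes). These correlations are across probes of the same arrays, several of which share a neighbour, and have no test. Pairs probed at the same position, as for Gm3776, were not left out. Such a pair measures the same stretch in separate spots, and the share of these pairs in the values above was not tested.

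Farther away the relation was weak. At 5 to 50 kb, 6.43% of 5259 probes were called and r was 0.126, and beyond 50 kb 8.54% of 4088 were called and r was 0.103. At those distances 66.6% and 68.5% of the called lincRNA probes had the sign of their neighbour. Within 5 kb, where pairs at the same position are included, it was 80.4%.

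Of 909 regions with kept probes on both strands, 183 had calls on 1 strand and 22 on both, and the rest had none. Of the 22, 6 had higher calls on both strands and 15 lower calls on both, and 2 had opposite calls, 1 of which also had lower calls on both strands. One of these was chr11:70196232-70203307, where the only kept forward probe, A_30_P01023726, rose from -0.16, 0.01, 0.50 and -0.28 to 1.16, 1.29, 1.13 and 1.52 (1.26, adjusted p = 0.00469), while 2 of 5 reverse-strand probes were called lower (by 0.59 and 0.73). The other was chr15:61984389-62102500, where 1 of 7 forward probes was called lower and the reverse strand had 3 lower calls and 1 higher among 10. Under the slide block neither region had opposite calls: both reverse-strand probes at chr11 (adjusted p = 0.0667 and 0.101) and both the lower forward and the higher reverse probe at chr15 (0.0886 and 0.116) lost their calls. With the replicate block both regions still had a called probe in each direction, on opposite strands.

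The complementary probe pairs bear on strand directly. There were 1040 pairs of kept lincRNA probes of 1 locus, on opposite strands, that shared at least 20 complementary bases. Their differences correlated at r = 0.157, and in 119 pairs at least 1 probe was called. Both were called in 14 pairs, and all 14 in the same direction.

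Sequence composition differed little between the probes that moved and those that did not. The median G+C content was 45.0% for all kept lincRNA probes and for those called higher, and 43.3% for those called lower, and 41.7% for the lincRNA probes that were not kept. At least 20 bases were shared with a probe elsewhere in the genome by 365 kept lincRNA probes, 21 of them called. A further 64 pairs joined a lincRNA probe to a probe of another class with the same 60 bases, which measured the same sequence in separate spots. Across those pairs the differences correlated at r = 0.756 and their median gap was 0.133. In 12 pairs at least 1 probe was called, and in 8 both were, in the same direction.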

How the data were processed

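The deposited scanner files hold 1-colour (Cy3) spot intensities, and the authors extracted them with Agilent Feature Extraction 10.7.3.1, per the submitters' processing notes. The processed signal in them is background-subtracted per the file headers. The deposited series table was treated as a score: 86.1% to 87.3% of its values lack their decimal point, and with the point restored at least 99.77% of probes lay within 0.05 of the scanner values, so it served only as an alternative.

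From the processed signal, log2 values were computed, less each array's 75th percentile (514 to 779 signal units), for all kept non-control probes. No spot was saturated. The test was limma's moderated one (version 3.58.1, R version 4.3.3, two-sided), with Benjamini-Hochberg adjustment over all 40807 kept probes, and the procedure was checked on simulated data. Symbols were updated through RefSeq's GRCm38.p6 table (31373 of 39430 other probes matched). Coordinates are the files' own mm9 positions.

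Named were the 12 largest called rises and 12 largest falls without overlap between groups (1 probe per locus), kept probes near a Hox cluster (those not called are summarised), the 8 loci with most calls in 1 direction (a tie at the last place went to the larger median difference), regions with opposite calls on their strands, and annotated noncoding genes of a list that were called. Transcripts named in the files, Meg3, Dnm3os, Jpx, and single values shown for contrast were added after their values were seen. One result near the HoxA cluster is not reported here. Members and lists were chosen with earlier results of these data known.

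Replicate numbers come from the labels' experiment numbers. Samples of equal number deviated together, with correlations of 0.145, 0.217, 0.124 and 0.168 that all exceed 0.1. So did eGFP 3 with Hoxa9-eGFP 4 (0.117) and eGFP 4 with Hoxa9-eGFP 3 (0.172). Samples of equal number were treated as pairs only in the replicate block, and the main test used neither the pairing nor the slide. Slide 1 held 2 eGFP samples and 1 Hoxa9-eGFP sample, slide 2 held 1 and 2, and slide 3 held 1 and 1. Alternatives were other scalings, the deposited table, normexp background (offset 50), other filters, 1 probe per name, slide and replicate blocks, a trended robust prior, array weights and each array left out.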

Additional observations from a re-analysis of the deposited data

Results flagged for a closer look

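In 3 of 78 groups of 4 arrays tested among the named probes, 1 array lay apart from the rest by more of the group's range than Dixon's 95% limit allows, and chance alone does so in about 1 in 20 groups. At chr4:119406384-119407856 (A_30_P01033238), eGFP replicate 1 read -8.17, and the other eGFP arrays -7.65, -7.55 and -7.65, all below background. At chr9:13349094-13352732 (A_30_P01031292), Hoxa9-eGFP replicate 2 read 0.52, and the others 0.82, 0.86 and 0.82. At chr4:114585803-114588898 (A_30_P01018351, the Foxd2os sequence), Hoxa9-eGFP replicate 4 read -3.60, and the others -3.18, -3.17 and -3.23. In each case the value remained on its group's side of the gap between the groups, which the choice of probes without overlap required.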

How the results depend on the processing

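Against 321 lincRNA probes higher and 465 lower, taking 1 probe per name gave 99 and 164, and asking for a 2-fold change as well gave 205 and 256, both by construction fewer. The slide block gave 287 lower. Leaving out 1 array gave 203 to 273 higher and 252 to 406 lower, the fewest without eGFP replicate 2 in both directions. For those array-dependent counts the cause was not tested. The median difference of -0.10 ran from -0.16 to -0.02 and never changed sign in these alternatives, which did not include single slides. Within slide 1 alone it was 0.27. Rises and falls given as at least a stated fold were each smaller than that fold in at least 1 alternative. Of 39 named probes, 691 values under alternatives held 603 calls kept, 88 lost and 0 reversed, 12 of the losses under normexp, 10 under the slide block and 5 to 9 with each array left out.

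Near the Hox clusters, the 3 higher calls became 1 under normexp and 1 with 1 probe per name, and 2 to 3 with an array left out. The 2 lower calls by limma became 1 under a median shift, without a filter, and with a trended robust prior, and 0 under normexp, with 1 probe per name and with the slide block, where 2, 1 and 4 probes had an unadjusted p under 0.05. They were 0 to 2 with an array left out: 0 without eGFP replicate 1 or 4 or Hoxa9-eGFP replicate 1 or 3 (3, 3, 5 and 5 at an unadjusted p under 0.05), and 1 without eGFP replicate 2 or 3 or Hoxa9-eGFP replicate 2. The cause was not tested.

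With the replicate block, the counts were 377 higher and 452 lower, 1 of the 2 lower Hox calls was kept, and 4 of the 39 named probes lost their call. Most lincRNA probes were dim, which limits what these 8 arrays can separate.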
